A study of Mus musculus with 117 samples.

Results

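The RNA of mouse fibroblasts on day 4 of reprogramming was compared with and without depletion of Ubc9. The 6 libraries were 3 with a short hairpin against Ubc9 (shUbc9) and 3 with a control hairpin (shCtrl), out of 117 samples in the series, which also holds RNA, chromatin and transcription factor profiles of other states. Both groups were embryonic fibroblasts (MEF) at passage 1, labelled with the same embryonic day. Both had expressed Oct4, Klf4, Sox2 and Myc (OKSM), which turn fibroblasts into pluripotent cells, for 4 days. The hairpin is thus the labelled difference between the groups. The members were all genes of the deposited count table. Of its 26301 genes, 17001 had enough counts to be tested at day 4. The same contrast in MEF (3 shCtrl and 2 shUbc9 libraries) and after 7 days of OKSM (3 and 3) was used only to show where day 4 differs.

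SUMO is a small protein that is attached to lysines of other proteins, most of them nuclear, through an E1 activating enzyme, the E2 enzyme Ubc9 and a set of E3 ligases, and is removed by SENP proteases. Ubc9 is the only known E2 of this pathway, so its depletion lowers conjugation of all SUMO forms. OKSM expression makes fibroblasts lose their mesenchymal program and gain epithelial features before a minority of cells turns on pluripotency genes. SUMO is known as a brake on this conversion, and the comparison asks which genes respond to losing that brake while the factors act.

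Each shCtrl library held 25.1 to 46.7 M counts in genes, and each shUbc9 library 35.9 to 56.6 M. Repeat families took 16.1% to 18.8% and 13.2% to 17.5% of all counts. The labels do not say whether the libraries came from separate cultures or embryos, and p-values therefore reflect nothing beyond the spread of these libraries, which may be technical. The RNA came from whole cultures, in which fewer cells of a type and less RNA per cell cannot be told apart. The labelled cell type was checked on 9 fibroblast markers, all of which were well above 0 in every library: their summed level was 28354 to 40343 CPM (counts divided by the library size in M) in shCtrl and 20197 to 22463 CPM in shUbc9. One control, shCtrl replicate 2, had lower values than its 2 partners for several long or abundant transcripts. Col1a1, for example, stood at 5385 CPM there against 10282 and 9109 CPM.

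The partners of Ubc9 moved in both directions. Of 19 genes for SUMO, its E1, E2 and ligases, 5 rose and 6 fell, beside 27.2% higher and 26.1% lower among all genes tested. Sumo3, one of the SUMO proteins, rose from 137, 144 and 135 to 200, 191 and 233 CPM (log2 fold change 0.59 ± 0.08, SE of the edgeR fit, adjusted p = 0.000348). Uba2, the catalytic subunit of the E1 enzyme, rose by 0.36 ± 0.07 and Ranbp2, a ligase of the nuclear pore, by 0.27 ± 0.06. Falls were found among the ligases. Pias3 fell by 0.55 ± 0.08 and Pias4 by 0.31 ± 0.06, while Pias1 (-0.14 ± 0.08) and Pias2 (-0.13 ± 0.07) did not pass. Zmiz1 was called at -1.17 ± 0.30, but its groups overlapped, because shCtrl replicate 2 had 29.9 CPM and shUbc9 replicate 2 had 30.4 CPM. Another 2 calls of this list rested on single libraries. Sae1 (0.19 ± 0.06) lost its call without shCtrl replicate 1, shCtrl replicate 3 or shUbc9 replicate 1 (adjusted p = 0.111, 0.118 and 0.110). Zmiz2 (-0.57 ± 0.22) lost it without any of 5 libraries: p was 0.172 without shCtrl replicate 1, 0.173 without shCtrl replicate 3, and 0.106, 0.0558 and 0.109 without shUbc9 replicate 1, 2 or 3. Sumo2, Nsmce2, Zfp451, Egr2, Trim28 and Topors, lay between -0.15 and 0.26 and did not pass.

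Among 12 genes of the SENP and Desi families, Uspl1 and the SUMO-targeted ubiquitin ligases, 5 rose and 1 fell. Uspl1, a SUMO protease of Cajal bodies, rose from 52.2, 51.1 and 51.8 to 71.5, 69.7 and 79.5 CPM (0.51 ± 0.07). Desi2 rose by 0.34 ± 0.07 and Senp3, the nucleolar SUMO protease, by 0.29 ± 0.06. Rnf4, which ubiquitinates proteins carrying SUMO chains, was called at 0.25 ± 0.07 but not without shCtrl replicate 3 (adjusted p = 0.0544). Senp8, of the SENP family but not a SUMO protease (0.35 ± 0.11), was lost without shCtrl replicate 1, 2 or 3 (0.0882, 0.0573 and 0.0503). Desi1 (-0.21 ± 0.06) was lost without shCtrl replicate 1, shCtrl replicate 3, shUbc9 replicate 1 or shUbc9 replicate 2 (0.0583, 0.0842, 0.0807 and 0.0701). Senp1, Senp2, Senp5, Senp6, Senp7 and Rnf111 lay between -0.23 and 0.14 and did not pass.

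In all, 9051 of 17001 genes were called, or 53.2%, with 4622 higher (27.2%) and 4429 lower (26.1%). Every count of rises or falls in a list is to be read beside these 2 shares. Most changes were small: 793 genes (4.66%) were called and at least 2-fold higher, and 661 (3.89%) at least 2-fold lower. The libraries of the groups did not overlap for 10519 genes (61.9%). A fit in which all 28 RNA libraries of the series share 1 estimate of spread called 4190 genes, 4095 of them among the 9051. With libraries scaled by their totals alone, 60.1% of the day 4 calls were higher, against 51.1%, with 5312 higher and 3523 lower, of which 922 and 505 by at least 2-fold.

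**Figure D1:**
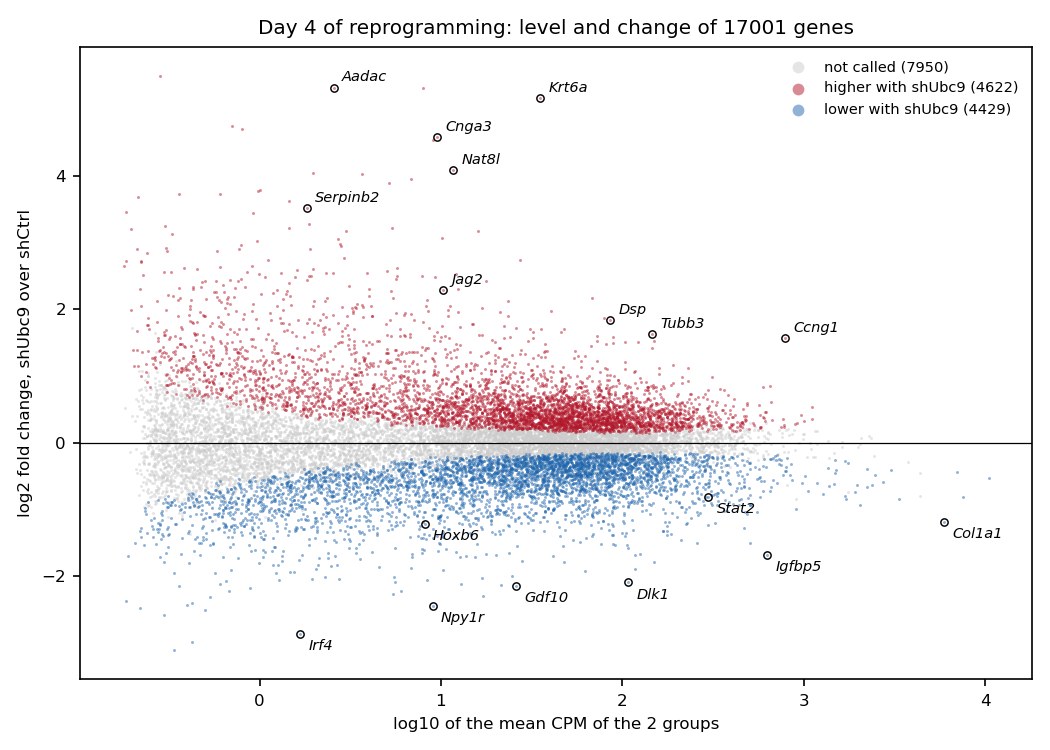
Mean level of each tested gene over both groups (log10 CPM, horizontal axis) against its log2 fold change, shUbc9 over shCtrl (vertical axis), with 1 point per gene. The largest rises, such as Aadac and Krt6a above 5 on the log2 scale, were of genes low in the controls, while falls did not reach -4 and included abundant transcripts such as Col1a1.

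The 15 largest rises were Aadac, Akr1c18, Krt6a, Ube2dnl1, Stmn4, Cnga3, Slco1a5, Nat8l, Xirp2, Bglap, Pou4f2, Cpn1, Serpinb6c, Anxa10 and Mmp10. They have little function in common: several are enzymes, carriers or structural genes of specialised tissues that fibroblasts hardly express. Slco1a5, a carrier of organic anions such as bile acids and steroids, stood at 0.768, 0.739 and 0.725 CPM in shCtrl and at 15.3, 14.6 and 22.4 CPM in shUbc9, a 23.3-fold rise (4.54 ± 0.22 log2, adjusted p = 1.75e-06). Nat8l, which makes N-acetylaspartate in neurons, rose from 1.15, 1.60 and 1.02 to 23.0, 21.6 and 21.6 CPM (17.0-fold). Cnga3, a channel subunit of cone photoreceptors, rose from 0.811, 0.824 and 0.645 to 18.5, 16.6 and 19.9 CPM (4.59 ± 0.14). In each of these 3 genes the lowest depleted library lay far above the highest control. The rule that named them required groups that do not overlap, so this separation follows from the choice.

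Other members of this group belong to bone, muscle and the nervous system. Bglap, the osteoblast product osteocalcin, rose from 0.469, 0.401 and 0.403 to 7.20, 6.08 and 7.52 CPM (16.4-fold). Pou4f2, a POU factor of retinal ganglion cells, rose by 3.97 ± 0.16 and reached 11.9 to 13.9 CPM. Xirp2, an actin-binding protein of striated muscle, rose by 4.05 ± 0.25, and Stmn4, a neuronal stathmin, by 4.72 ± 0.45 from 0 to 0.107 CPM in the controls. Bglap, Krt6a, Slco1a5 and Serpinb6c have close relatives in the genome, and the sources used here do not give how reads that map to several places were counted, so counts of such copies could be shared.

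The promoters of 3 genes that rose are shown because each holds the binding motif of AP-1 (the Fos and Jun dimers that drive serum and stress responses), TGANTCA on either strand, in capitals. The sequences are RefSeq's, build GRCm38.p6, 5′ to 3′ on the gene's strand, from 250 bases before to 50 after the annotated start. Slco1a5 lies on the minus strand at chr6:142278825-142279124, with the motif 90 bases before the start. Mmp10, the metalloproteinase stromelysin-2, lies on the plus strand at chr9:7502092-7502391, with the motif 63 bases before the start. Serpinb2, the plasminogen activator inhibitor PAI-2, lies on the plus strand at chr1:107511173-107511472, with the motif 94 bases before the start.
Slco1a5: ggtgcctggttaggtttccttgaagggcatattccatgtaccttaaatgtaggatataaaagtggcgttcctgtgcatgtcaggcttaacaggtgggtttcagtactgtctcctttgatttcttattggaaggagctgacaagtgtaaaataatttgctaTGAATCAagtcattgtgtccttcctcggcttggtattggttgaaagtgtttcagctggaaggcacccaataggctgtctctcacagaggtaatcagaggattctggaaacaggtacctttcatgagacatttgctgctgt
Mmp10: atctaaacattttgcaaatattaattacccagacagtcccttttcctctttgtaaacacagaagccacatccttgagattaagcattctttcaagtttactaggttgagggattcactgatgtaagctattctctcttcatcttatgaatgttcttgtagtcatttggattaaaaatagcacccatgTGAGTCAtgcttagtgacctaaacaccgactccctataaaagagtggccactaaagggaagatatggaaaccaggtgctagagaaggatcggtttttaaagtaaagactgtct
Serpinb2: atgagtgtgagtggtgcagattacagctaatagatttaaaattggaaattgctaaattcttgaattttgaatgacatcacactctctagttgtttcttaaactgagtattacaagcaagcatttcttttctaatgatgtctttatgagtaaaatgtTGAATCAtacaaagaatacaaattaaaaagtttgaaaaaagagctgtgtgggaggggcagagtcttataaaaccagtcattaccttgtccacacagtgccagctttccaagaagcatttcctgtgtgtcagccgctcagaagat
Serpinb2 rose from 0.299, 0.253 and 0.322 to 2.58, 3.26 and 4.26 CPM, and Mmp10 from 0, 0.106 and 0.107 to 1.22, 1.10 and 1.11 CPM. Of the 17001 genes, 12445 had a promoter in the RefSeq table, and 848 of these (6.81%) held the motif. It was found in 85 of 591 promoters of genes called at least 2-fold higher (14.4%) and in 33 of 423 of those at least 2-fold lower (7.80%). Among the 15 largest rises, 4 of 12 promoters held it, and among the 15 largest falls 2 of 10 did. A match is only a run of letters, not a measured site, and these shares were not tested.

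Genes of the surface epithelium rose in a mixed pattern. Among 40 genes of desmosomes, tight and adherens junctions 19 rose and 4 fell, with a median of 0.59 on the log2 scale beside -0.01 over all genes, and 3 genes of the list did not reach the count minimum. Dsp, the desmosomal linker desmoplakin, rose from 38.0, 35.1 and 39.0 to 138, 139 and 125 CPM (1.84 ± 0.07, adjusted p = 1.15e-06). Dsc3, a desmosomal cadherin, rose by 2.05 ± 0.15, and Grhl3, a transcription factor of barrier epithelia, by 1.19 ± 0.08 to 19.7 to 21.5 CPM. In the other direction, Elf3, an epithelial ETS factor, fell by 1.05 ± 0.18, the tight junction protein gene Cgn by 0.85 ± 0.15 and the desmosomal cadherin gene Dsg2 by 0.66 ± 0.17. The junction genes thus did not move as a block.

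Of 24 keratin genes 18 were tested, and 9 of these rose and 4 fell. Krt13, of stratified mucosa, rose from 35.3, 39.8 and 36.1 to 105, 100 and 116 CPM (1.53 ± 0.08), and Krt17, a keratin of hair follicles and wounded skin, rose by 1.70 ± 0.18. The 4 falls were those of Krt20, Krt7, Krt18 and Krt19, keratins of simple epithelia. Krt20, a keratin of gut and urothelium, fell from 15.3, 15.5 and 14.2 to 5.28, 4.96 and 6.68 CPM (-1.42 ± 0.12), Krt7 by 0.99 ± 0.16, Krt18 by 0.70 ± 0.17 and Krt19 by 0.40 ± 0.07. Krt14, an abundant keratin of stratified epithelia, did not pass (adjusted p = 0.998). Of 37 genes of the cornified envelope and skin barrier 26 were tested, and 13 of these rose and 4 fell. In both lists members that passed only through the depleted group had to differ, so these counts carry no weight of their own. Krtdap, a secreted product of differentiating keratinocytes, rose by 1.98 ± 0.14 (15.4, 18.5 and 15.2 to 61.4, 54.8 and 77.9 CPM), Tgm1, which crosslinks the envelope, by 1.71 ± 0.08 and Sbsn by 1.61 ± 0.08, while Ppl, another envelope protein, fell by 0.82 ± 0.09 and Sprr1a by 1.25 ± 0.21. Of the transcription factors of mesenchymal transition, 3 of 16 rose and 10 fell. Snai1, the classical repressor of E-cadherin, fell from 30.0, 18.6 and 23.7 to 12.3, 10.6 and 12.8 CPM (-1.01 ± 0.16). Foxc1 fell by 0.73 ± 0.07 and Prrx2 by 0.61 ± 0.06. Against this direction, Fosl1, an AP-1 subunit, rose by 1.31 ± 0.14, and Snai3, seen in 1 control library only (0.0211 CPM), stood at 0.539, 0.574 and 0.557 CPM in the depleted ones. Cdh1, E-cadherin itself, stood at 25.1 to 29.6 CPM in shCtrl and 29.2 to 30.9 CPM in shUbc9 and did not pass (adjusted p = 0.138).

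**Figure D2:**
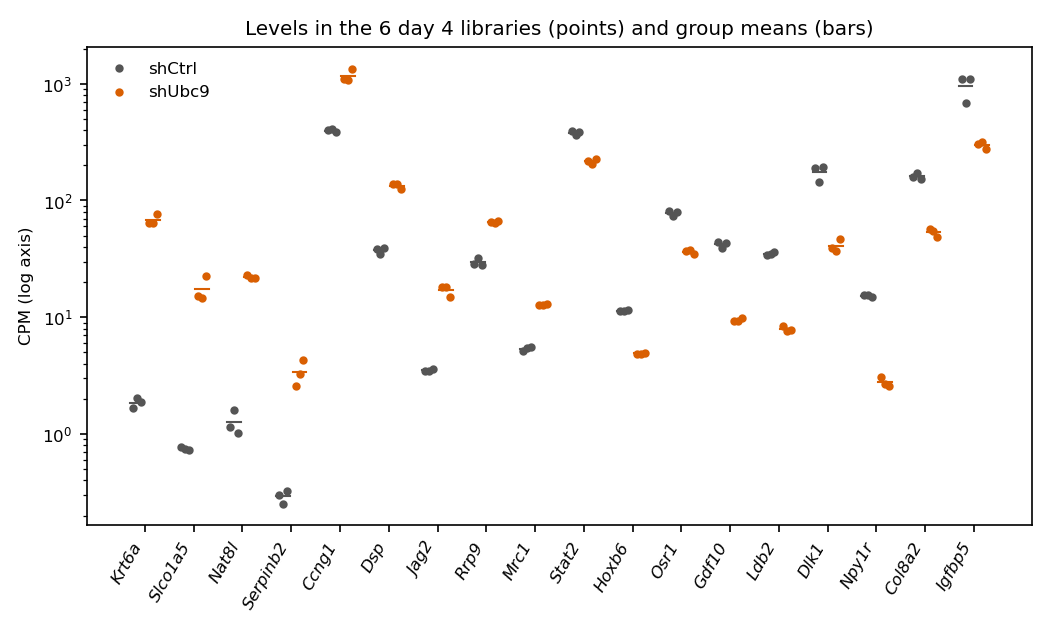
CPM of 18 genes in the 6 day 4 libraries (log axis), with points for libraries and short bars for group means. The genes were chosen from those named, with their values known, so the separation of their groups follows from the choice. Krt6a has the largest fold and Stat2 the smallest.

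The 15 largest falls were Irf4, Npy1r, Col2a1, Tspan18, Ptchd1, Dcaf12l2, Gdf10, Ldb2, Smpd3, Dlk1, Gask1a, Slc4a10, Gabra3, Cntnap3 and Rspo1, with log2 fold changes from -2.87 to -2.05. Gdf10, a secreted relative of the bone morphogenetic proteins, fell from 44.2, 38.8 and 43.6 to 9.31, 9.27 and 9.94 CPM (-2.15 ± 0.08, adjusted p = 1.15e-06). Ldb2, a cofactor of LIM-homeodomain transcription factors, fell from 34.4, 34.7 and 36.2 to 8.37, 7.60 and 7.82 CPM (-2.15 ± 0.08). The spread within groups was small in both. Smpd3, a neutral sphingomyelinase needed for skeletal growth, fell from 22.9, 19.4 and 20.6 to 4.76, 4.66 and 4.95 CPM. Gabra3, a GABA-A receptor subunit, fell by 2.07 ± 0.15, and Rspo1, a secreted amplifier of WNT signalling, by 2.05 ± 0.14.

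Extracellular matrix genes made up most of the largest falls in absolute level. Of 26 fibrillar and basement membrane collagen genes 24 fell and 0 rose (median -0.66), and of 42 other fibroblast matrix and surface genes 33 fell and 1 rose (median -0.49). With a spread shared by all 28 libraries the falls numbered 10 and 15. Col8a2, a short-chain collagen, fell from 159, 172 and 152 to 56.6, 55.1 and 48.6 CPM (-1.59 ± 0.08). Col14a1, which sits on collagen fibrils, fell by 1.23 ± 0.07 to 163 to 187 CPM. Fmod, the collagen-binding proteoglycan fibromodulin, fell by 1.54 ± 0.10 and Eln, elastin, from 493, 420 and 406 to 238, 237 and 239 CPM. By difference in CPM the 10 largest falls were Col1a1, Col1a2, Col3a1, Malat1, Ahnak, Fn1, Fbn1, Lrp1, Thbs1 and Postn. Fn1, fibronectin, stood at 3226, 1949 and 2874 CPM in shCtrl and at 1441, 1549 and 1220.5 CPM in shUbc9, and Postn, periostin, at 2337, 2056 and 2209 against 1173, 1132 and 1356 CPM. The calls of Lrp1 and Malat1 rested on single libraries: Lrp1 was lost without shCtrl replicate 1, shCtrl replicate 3 or shUbc9 replicate 3, with adjusted p of 0.0600, 0.0793 and 0.0587. Malat1 was lost without shCtrl replicate 1 or 3 (0.102 and 0.0920) or without shUbc9 replicate 1, 2 or 3 (0.0797, 0.0556 and 0.0625). The rise in the second list was that of Cd44, the hyaluronan receptor (0.43 ± 0.09).

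The transcription factors that give fibroblasts their place in the body fell almost throughout. Of 39 mesodermal patterning factors 33 fell and 0 rose, with a median of -0.78. Osr1, of kidney and limb mesenchyme, fell from 81.3, 73.4 and 79.1 to 37.2, 37.4 and 34.8 CPM (-1.09 ± 0.07), Irx1 by 0.99 ± 0.07 and Meox1, a factor of somites, by 1.86 ± 0.13. The Hox genes, which encode position along the body axis, fell in all 4 clusters. Of the 39 listed, 35 were tested, and 28 of these fell and 1 rose (median -0.77). By cluster, 8 of 11 Hoxa, 7 of 8 Hoxb, 6 of 8 Hoxc and 7 of 8 Hoxd genes fell, with cluster medians of -0.65, -0.64, -0.81 and -0.73. Hoxb6 fell from 11.3, 11.3 and 11.5 to 4.88, 4.83 and 4.98 CPM (-1.22 ± 0.08, adjusted p = 8.13e-06), Hoxd12 by 1.28 ± 0.13 and Hoxa10 by 0.80 ± 0.08. Hoxa3 had the largest fall of the family (-1.59 ± 0.23) and Hoxb7 the value nearest 0 (-0.01 ± 0.10, adjusted p = 0.944), both singled out after their values were seen. Hox genes overlap antisense transcripts, and the sources used here do not give whether counting used strand, so part of these counts may come from the other strand.

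**Figure D3:**
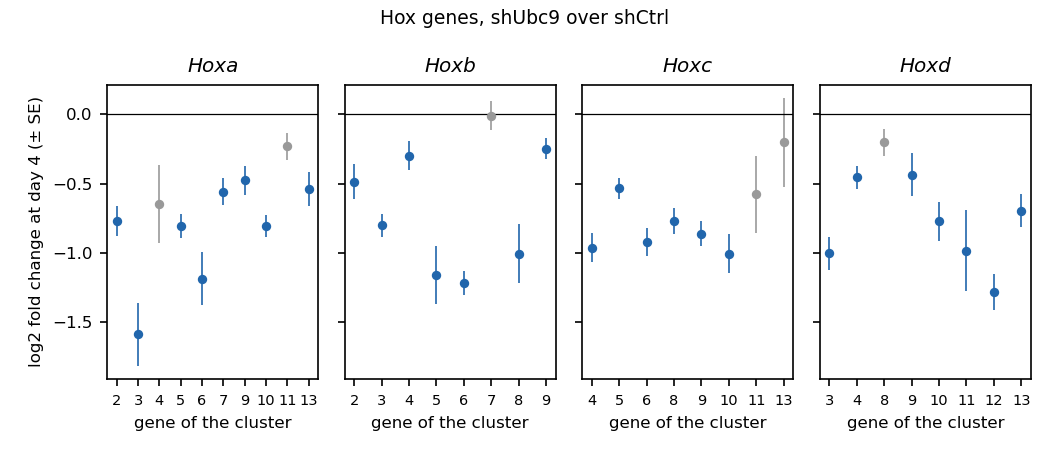
Log2 fold change at day 4 (points, bars ± SE) of 34 of the 35 tested Hox genes in the order of their number within each cluster, in blue where lower and grey where not called. All 34 lie below 0, and the cluster medians over all tested genes lie between -0.81 and -0.64.

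Genes of signalling between mesenchymal cells moved with these factors, with exceptions. In the WNT pathway 30 of 47 genes fell and 9 rose (median -0.51). The ligand gene Wnt2 fell from 48.4, 53.7 and 48.8 to 24.5, 24.4 and 25.6 CPM (-1.02 ± 0.07), the antagonist gene Dkk2 by 1.18 ± 0.06 and the enhancer gene Rspo2 by 1.32 ± 0.08. The receptor gene Fzd10 rose from 5.25, 4.56 and 4.03 to 17.6, 17.0 and 16.9 CPM (1.91 ± 0.10), and Nkd2, which restrains the pathway, by 1.76 ± 0.09. The count of 9 rises was 5 without shCtrl replicate 1. In the TGF-beta superfamily 21 of 51 genes fell and 7 rose (median -0.25). Apart from Gdf10 they included the BMP antagonist gene Chrd (-1.13 ± 0.09) and Ltbp1, which stores latent TGF-beta in the matrix (-1.05 ± 0.08). The ligand subunit gene Inhbb rose by 0.58 ± 0.06 and the BMP antagonist gene Grem1 by 0.73 ± 0.09. The count of rises in this family fell to 3 or 4 when 1 library other than shUbc9 replicate 3 was left out: 4 without shCtrl replicate 1, 2 or 3, and 3 without shUbc9 replicate 1 or 2.

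Notch and growth factor genes gained some ligands. Jag2, a Notch ligand, rose from 3.46, 3.44 and 3.63 to 18.3, 18.1 and 15.0 CPM (2.29 ± 0.11, adjusted p = 1.75e-06), while Jag1 fell by 0.57 ± 0.08 and the receptor gene Notch2 by 0.91 ± 0.12. Over the Notch list 8 of 21 rose and 8 fell, with 5 rises without shCtrl replicate 3. In the EGF and FGF families 8 of 29 rose and 11 fell, beside 27.2% higher and 26.1% lower over all genes tested. Ereg and Epgn, both ligands of the EGF receptor, rose by 1.54 ± 0.11 (10.2, 10.3 and 8.68 to 26.1, 27.2 and 31.8 CPM) and by 2.58 ± 0.21. Dusp6, a phosphatase that ERK signalling switches on, rose by 0.96 ± 0.07, whereas Spry2, another target of the same pathway, fell by 0.74 ± 0.06. The receptor genes Fgfr2 and Erbb2 fell by 0.79 ± 0.07 and 0.75 ± 0.07.

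All 30 genes tested for ribosome biogenesis and the nucleolus rose, with a median of 0.69, and 0 fell. Rrp9, which binds the U3 small nucleolar RNA, rose from 28.5, 32.4 and 28.2 to 65.0, 63.7 and 66.5 CPM (1.13 ± 0.07, adjusted p = 5.64e-06), Heatr1, a factor of ribosomal RNA transcription and processing, from 77.8, 80.2 and 81.2 to 144, 145 and 136 CPM (0.83 ± 0.06), and Ftsj3 by 0.83 ± 0.07. Of 31 proteasome subunit genes 24 rose and 1 fell (median 0.35), and 11 rose with a spread shared by all 28 libraries. Psmd14, the deubiquitinase of the lid, rose by 0.50 ± 0.07. Of 53 nuclear genes of the respiratory chain 30 rose and 0 fell (median 0.26), a count that was 10 without shCtrl replicate 1 and 12 without shCtrl replicate 3. Cycs, cytochrome c, rose from 39.2, 44.9 and 39.5 to 68.3, 65.3 and 86.8 CPM. Of 76 cytosolic ribosomal protein genes 14 rose and 0 fell, a share of rises below the 27.2% over all genes. This last count ranged from 0 without shCtrl replicate 1 or shCtrl replicate 3 over 2, 4 and 5 without shCtrl replicate 2, shUbc9 replicate 1 and shUbc9 replicate 3 to 50 without shUbc9 replicate 2, and was 48 when libraries were scaled by their totals alone.

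One promoter of this group is shown because it holds the E-box CACGTG, the palindrome bound by Myc and related factors, in capitals. Myc is 1 of the 4 factors expressed in both groups. Nop2, a nucleolar RNA methyltransferase gene, lies on the plus strand at chr6:125131633-125131932 (RefSeq, GRCm38.p6), with the E-box 60 bases before the start.
Nop2: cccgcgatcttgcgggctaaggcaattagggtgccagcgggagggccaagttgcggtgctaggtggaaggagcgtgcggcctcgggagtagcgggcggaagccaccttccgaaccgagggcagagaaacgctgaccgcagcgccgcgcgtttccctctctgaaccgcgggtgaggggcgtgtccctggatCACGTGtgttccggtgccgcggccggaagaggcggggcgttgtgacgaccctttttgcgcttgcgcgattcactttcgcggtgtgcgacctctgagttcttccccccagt
Nop2 rose from 76.0, 86.2 and 77.9 to 134, 131 and 120 CPM (0.68 ± 0.07). Among the ribosome biogenesis genes 6 of 25 promoters held the E-box, beside 1372 of all 12445. The share was 11.02% over all promoters, 10.3% among genes called at least 2-fold higher and 5.67% among those at least 2-fold lower. Of the Hox genes, most of which fell, 4 of 20 promoters held it. These shares were not tested. Counts of Myc itself, which may include the transcript of the reprogramming cassette, were not called (0.24 on the log2 scale), nor were those of Sox2 (0.29) and Klf4 (-0.20), while Pou5f1 was higher, at 52.4, 55.9 and 43.3 CPM against 30.1, 26.8 and 38.4 CPM (0.67 ± 0.14, adjusted p = 0.00295).

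**Figure D4:**
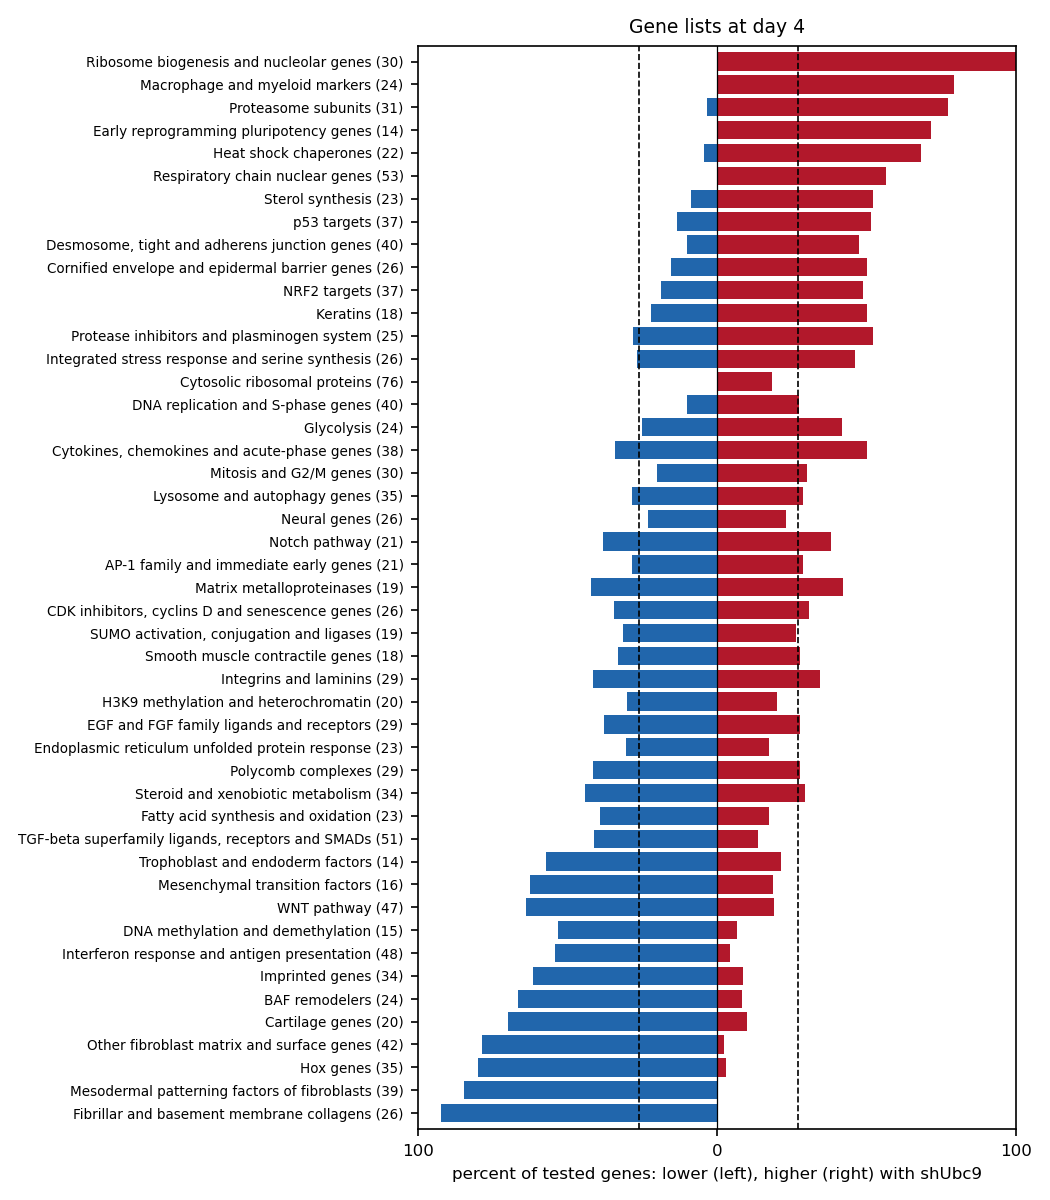
Share of the tested genes of each list (number in parentheses) that was lower (blue, to the left) or higher (red, to the right) with shUbc9 at day 4, for lists with at least 14 tested genes. Dashed lines mark the share over all genes, 26.1% lower and 27.2% higher, which ribosome biogenesis and nucleolar genes exceed with 30 of 30 higher and collagens with 24 of 26 lower.

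Stress and growth control genes gave a more divided picture. Of 37 p53 targets 19 rose and 5 fell (10 and 2 with the shared spread). Ccng1, cyclin G1, a sensitive p53 target, rose from 400, 408 and 383 to 1107, 1073 and 1344 CPM, the largest gain in CPM under the naming rule (1.57 ± 0.10, adjusted p = 5.48e-06). Tigar, which limits glycolytic flux, rose by 1.04 ± 0.07 and Dyrk3 by 1.39 ± 0.10. The stress-response sestrin gene Sesn1 fell by 0.80 ± 0.07, and 8 p53 targets instead of 5 fell without shCtrl replicate 2. Of 37 NRF2 targets 18 rose and 7 fell (4 without shUbc9 replicate 1). Slc7a11, the cystine importer, rose by 1.02 ± 0.09 and Gsr, glutathione reductase, from 78.0, 83.9 and 70.5 to 126, 122 and 129 CPM, while Gstm2 fell by 0.62 ± 0.07. In the integrated stress response list 12 of 26 rose and 7 fell, with Asns, asparagine synthetase, at 72.2, 80.9 and 71.7 CPM in shCtrl and 151, 147 and 170 CPM in shUbc9. Among 22 heat shock chaperone genes 15 rose and 1 fell, and Hspd1, the mitochondrial chaperonin, rose by 0.80 ± 0.09. Chaperones of the endoplasmic reticulum did not move with them, with 4 of 23 higher and 7 lower and Hyou1 at -0.59 ± 0.07.

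Cell cycle genes changed little in either direction. Of 30 mitosis genes 9 rose and 6 fell (median 0.06), and of 40 replication genes 11 rose and 4 fell (median 0.04), near or below the background shares of 27.2% and 26.1%. The rises numbered 5 in the first list without shCtrl replicate 1 or shCtrl replicate 3, and 4, 3 and 7 in the second without shCtrl replicate 1, shCtrl replicate 3 and shUbc9 replicate 1. Aurka, a mitotic kinase, rose by 0.47 ± 0.08 and Ccne2, cyclin E2, by 0.83 ± 0.11, whereas Incenp, a scaffold of the chromosomal passenger complex, fell from 75.1, 71.4 and 72.8 to 48.7, 46.8 and 44.9 CPM. Among inhibitors and senescence genes 8 of 26 rose and 9 fell. Cdkn1c, the inhibitor p57, fell from 263, 258 and 245 to 101, 85.2 and 106 CPM (-1.39 ± 0.09). Igfbp5 fell from 1099.8, 685 and 1103 to 306, 314 and 276 CPM (-1.69 ± 0.17) and Igfbp3 by 0.85 ± 0.07, while Hmga2, a chromatin protein of growing embryonic tissue, rose by 1.29 ± 0.14 and Rb1 by 0.89 ± 0.08.

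Secreted proteases and their inhibitors moved in both directions within families, beside 27.2% higher and 26.1% lower over all genes tested. Of 19 metalloproteinase genes 8 rose and 8 fell. Mmp3, stromelysin-1, rose from 71.4, 79.9 and 87.7 to 199, 191 and 251 CPM (1.42 ± 0.11) and Mmp9, gelatinase B, from 4.52, 4.69 and 4.94 to 10.7, 9.50 and 8.96 CPM. Membrane-bound Mmp16 fell from 40.8, 40.6 and 41.1 to 19.8, 19.6 and 17.8 CPM (-1.10 ± 0.07), and Mmp23 and Mmp28 by 0.60 ± 0.07 and 0.55 ± 0.07. Of 25 protease inhibitors and plasminogen system genes 13 rose and 7 fell (4 without shUbc9 replicate 1). Plaur, the urokinase receptor, rose by 1.27 ± 0.07. The AP-1 motif TGANTCA was in 5 of 14 promoters of metalloproteinase genes and 6 of 19 of this list. The AP-1 genes themselves were divided: of 21 AP-1 and immediate early genes 6 rose and 6 fell, with Maff at 1.15 ± 0.12 and Jun at -0.54 ± 0.07. Their falls numbered 2 without shCtrl replicate 1, and 3 without shCtrl replicate 3, shUbc9 replicate 1 or shUbc9 replicate 3.

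Inflammatory genes also divided. Of 38 cytokine, chemokine and acute-phase genes 19 rose and 13 fell. Ptgs2, the inducible cyclooxygenase, rose from 44.8, 41.4 and 42.0 to 108, 119 and 131 CPM (1.48 ± 0.08), Il6 by 1.28 ± 0.14 and Hp, haptoglobin, by 0.82 ± 0.06. Csf1, the growth factor of macrophages, fell from 238, 206 and 229 to 113, 120 and 101 CPM (-1.01 ± 0.08), complement C3 by 0.94 ± 0.08 and Tnfaip3, a brake on NF-kB, by 0.75 ± 0.07.

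Interferon response genes fell as a list, with 26 of 48 lower and 2 higher, and 15 and 17 lower without shUbc9 replicate 1 and 2. With the shared spread 3 were lower. The promoters of Stat2 and Ifit3 are shown for the core of the interferon-stimulated response element, GAAA, any 2 bases and GAAA again, on either strand, in capitals. Stat2, a subunit of the factor that binds this element, lies on the plus strand at chr10:128270248-128270547, with the motif 222 bases before the start. Ifit3, an antiviral gene chosen after its values were seen, lies on the plus strand at chr19:34583279-34583578 and holds 2 matches, the first 156 bases before the start (both RefSeq, GRCm38.p6).
Stat2: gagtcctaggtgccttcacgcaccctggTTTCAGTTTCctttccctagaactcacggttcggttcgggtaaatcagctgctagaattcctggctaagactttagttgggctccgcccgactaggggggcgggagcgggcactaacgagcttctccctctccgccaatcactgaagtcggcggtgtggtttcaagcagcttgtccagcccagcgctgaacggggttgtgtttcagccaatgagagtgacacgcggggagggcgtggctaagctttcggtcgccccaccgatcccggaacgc
Ifit3: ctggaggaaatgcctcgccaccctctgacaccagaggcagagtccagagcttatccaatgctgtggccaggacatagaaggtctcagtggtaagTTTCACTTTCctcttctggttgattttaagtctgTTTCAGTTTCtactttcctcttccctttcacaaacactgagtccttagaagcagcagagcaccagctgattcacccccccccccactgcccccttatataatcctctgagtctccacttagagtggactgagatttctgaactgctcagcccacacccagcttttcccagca
Stat2 fell from 391, 363 and 388 to 216, 205 and 228 CPM (-0.82 ± 0.07, adjusted p = 2.2e-05). Ifit3 fell from 371, 322 and 248 to 113, 116 and 176 CPM (-1.22 ± 0.19). Ddx58, the RNA sensor RIG-I, fell by 0.76 ± 0.09 and the peptide transporter gene Tap1 by 0.53 ± 0.07. The motif was in 15 of 35 promoters of the list, beside 3.70% of all promoters. It was in 3.90% of promoters of genes called lower and 4.49% of those of genes called at least 2-fold lower. The list was made of interferon response genes, so its share says nothing about the hairpin. A match is not a measured site, and these shares were not tested.

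Chromatin regulators changed in both directions, beside 27.2% higher and 26.1% lower over all genes tested. Of 24 genes for BAF remodelers 16 fell and 2 rose (median -0.26), a count of falls that was 10 without shUbc9 replicate 1, 10 with libraries scaled by their totals alone and 5 with the shared spread. Smarcc2 fell from 191, 173 and 212 to 103, 105 and 100 CPM (-0.90 ± 0.08) and Smarca2, the ATPase BRM, by 0.56 ± 0.08, whereas Actl6a, the actin-related subunit of proliferating cells, rose by 0.43 ± 0.07. Of 15 DNA methylation genes 8 fell and 1 rose. Dnmt3a, a de novo methyltransferase, fell from 193, 174 and 194 to 109, 116 and 110 CPM (-0.74 ± 0.07), and its germline cofactor Dnmt3l rose by 1.20 ± 0.19 from 1.29 to 1.54 CPM in the controls. Of 29 Polycomb genes 12 fell and 8 rose. The chromodomain gene Cbx6 fell from 276, 248 and 277 to 109, 106 and 94.9 CPM (-1.37 ± 0.08) and Pcgf2 by 1.10 ± 0.17. Of 12 genes of PML bodies and H3.3 chaperones, which include known SUMO carriers, 6 fell and 2 rose: Pml by 0.54 ± 0.09, Daxx by 0.41 ± 0.08 and Ubn1 by 0.54 ± 0.07. Of 20 genes of H3K9 methylation 6 fell and 4 rose, all by less than 2-fold, and the falls numbered 3 without shCtrl replicate 1 or shCtrl replicate 3 and 1 with libraries scaled by their totals alone. Of 10 genes of CAF-1 and chromatin assembly 4 rose and 1 fell (median 0.21). The histone chaperone genes Nasp, Nap1l1 and Supt16 rose by 0.38 ± 0.10, 0.36 ± 0.08 and 0.33 ± 0.07. Chaf1a, a CAF-1 subunit, was called at -0.19, a call that was lost with no filter on low counts (adjusted p = 0.0818).

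Pluripotency genes were at low levels in all 6 libraries. Of 18 genes known to come on early in reprogramming 14 passed the count minimum, and 10 of these rose and 0 fell. Members that passed only through the depleted group had to differ, so this count carries no weight of its own. Upp1, uridine phosphorylase, rose from 0.896, 0.655 and 0.725 to 4.15, 4.27 and 4.62 CPM (2.55 ± 0.15, adjusted p = 4.62e-06), Tdh, threonine dehydrogenase, from 2.22, 2.13 and 2.39 to 5.21, 5.11 and 5.93 CPM and Gdf3 by 0.98 ± 0.16. Of 20 late genes 10 passed, with 3 higher and 5 lower. Etv4 rose by 1.41 ± 0.09, and Klf2 fell from 3.67, 3.42 and 3.82 to 1.62, 1.74 and 1.84 CPM. The depleted libraries were not alike in the latest markers. Dppa5a stood at 0.0469 CPM in shUbc9 replicate 1 but at 1.16 and 1.59 CPM in replicates 2 and 3, and Esrrb at 0.0469, 0.810 and 0.835 CPM. In shCtrl these genes lay between 0 and 0.0269 CPM and between 0.0427 and 0.107 CPM. Dppa5a and Esrrb did not pass the count minimum.

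Genes of other lineages changed one by one, beside 27.2% higher and 26.1% lower over all genes tested. Of 24 trophoblast and endoderm factors 14 were tested, and 3 of these rose and 8 fell. Members that passed only through 1 group had to differ. Tfap2c, a factor of trophoblast and germ cells, rose from 0.341, 0.211 and 0.134 to 2.72, 2.50 and 2.87 CPM (3.63 ± 0.25). Eomes rose by 2.33 ± 0.34, while Gata6 and Gata4 fell by 1.05 ± 0.10 and 1.56 ± 0.22. Of 26 neural genes 6 rose and 6 fell, both below the shares over all genes. Tubb3, neuronal tubulin, rose from 69.2, 77.8 and 67.4 to 226, 215 and 222 CPM (1.63 ± 0.07), Nes, nestin, from 51.5, 44.4 and 44.0 to 134, 131 and 129 CPM and Nefl, the light neurofilament, by 2.51 ± 0.13. The glial marker Sox10 (0.135 to 0.375 CPM over all libraries) did not pass. Of 34 imprinted genes 21 fell and 3 rose, among the falls Mest, from 358, 332 and 351 to 170, 171 and 165 CPM (-1.04 ± 0.06). Cartilage genes fell in 14 of 20 and rose in 2, with Comp at -1.12 ± 0.08. Of the integrins and laminins 10 of 29 rose and 12 fell: Itga7, a laminin receptor of muscle, rose from 14.3, 15.4 and 13.9 to 47.6, 49.8 and 44.9 CPM, and Itga11, a collagen receptor of fibroblasts, fell by 1.69 ± 0.08 from 170 to 189 CPM in the controls.

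Macrophage genes moved with the hairpin as well. Of 24 macrophage and myeloid genes 19 rose and 0 fell (median 0.65), and all 9 markers used for the cell type check rose. With a spread shared by all 28 libraries 2 of the 24 were called, and Adgre1 and C1qa were not (adjusted p = 0.179 and 0.202). The summed level of the 9 markers was 62.3 to 64.5 CPM in shCtrl and 104.9 to 108.6 CPM in shUbc9. None of the 9 was at 0 in any library. Mrc1, the mannose receptor, rose from 5.12, 5.43 and 5.53 to 12.8, 12.8 and 12.9 CPM, and C1qa by 0.98 ± 0.09. The part of macrophages in the changes of cytokine, lysosome and interferon genes was not tested. Endothelial markers gave 1 rise and 1 fall of 5 tested (summed level 172.1 to 178.6 and 201.9 to 203.0 CPM, nearly all of it Tek), and skeletal muscle markers 2 rises of 2, with the regulators Myod1 and Myog at or below 0.118 CPM in every library. Keratinocyte markers gave 2 rises and 0 falls of 4 tested. Krt5 rose by 0.72 from 0.465 to 0.981 CPM in the controls (adjusted p = 0.0398), and Ivl, involucrin, by 1.32 from 0.128 to 0.401 CPM (adjusted p = 0.0149). Their summed level, nearly all of it Krt14, was 83.0 to 91.9 CPM in shCtrl and 79.7 to 94.2 CPM in shUbc9, which overlap. Krt14 stood at 77.9 to 88.1 CPM in shCtrl and 75.4 to 89.0 CPM in shUbc9, and Trp63 at 2.91 to 3.92 and 2.53 to 3.02 CPM.

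The day 4 changes were set beside those after 7 days of OKSM, in libraries that are not shared. Day 7 gave 9223 calls among 17207 genes (53.6%). Rises made up 27.3% and falls 26.3% of the genes tested, with 8.83% at least 2-fold higher and 6.35% at least 2-fold lower. The day 7 libraries did not overlap for 61.1% of genes. Of 4587 genes higher at day 4 and tested at day 7, 3075 were higher there too and 61 lower, which is 67.0% of the day 4 list and 69.3% of the day 7 list. Of 4394 lower genes 3157 were lower and 102 higher (71.8% and 70.2%). All 15 largest rises were higher and all 15 largest falls lower at day 7. In MEF 984 of 16287 genes passed (6.04%). There, rises made up 3.83% and falls 2.21%, with 0.510% at least 2-fold higher and 0.0860% at least 2-fold lower. The MEF libraries did not overlap for 38.2% of genes. Of the day 4 calls, 301 of 4282 genes higher at day 4 were higher (7.03% of that list and 48.8% of the MEF list) and 39 lower, and 210 of 4333 lower genes were lower (4.85% and 59.0%) and 122 higher. The MEF count rested on single libraries: it was 1717 without MEF shCtrl replicate 2, 398 without MEF shCtrl replicate 3, and 330 and 266 without MEF shUbc9 replicate 1 and 3. With libraries scaled by their totals alone, 71.5% of the day 7 calls were higher, against 50.9%, the median of all genes there moved to 0.21, and 52.1% of the MEF calls were higher, against 63.4%.

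The named genes show the same grading. Of the 15 largest rises 5 were tested in MEF, and 2 were higher there: Mmp10 (3.02 ± 0.25) and Akr1c18 (2.12 ± 0.49). Slco1a5 stood at 0.540 to 0.827 CPM in MEF shCtrl and 0.560 and 0.605 CPM in MEF shUbc9, and reached 22.0 to 28.8 CPM in shUbc9 at day 7. Of the 15 falls 14 were tested in MEF and 4 were lower: Col2a1 (-1.20 ± 0.07), Cntnap3 (-0.84 ± 0.20), Ptchd1 (-0.72 ± 0.09) and Smpd3 (-0.58 ± 0.08). Gabra3 was at 0.851 to 1.04 CPM in all MEF libraries, 11.7 to 15.5 CPM in the day 4 controls and 23.7 to 28.6 CPM in the day 7 controls, and at 1.53 to 1.80 CPM with shUbc9 at day 7.

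**Figure D5:**
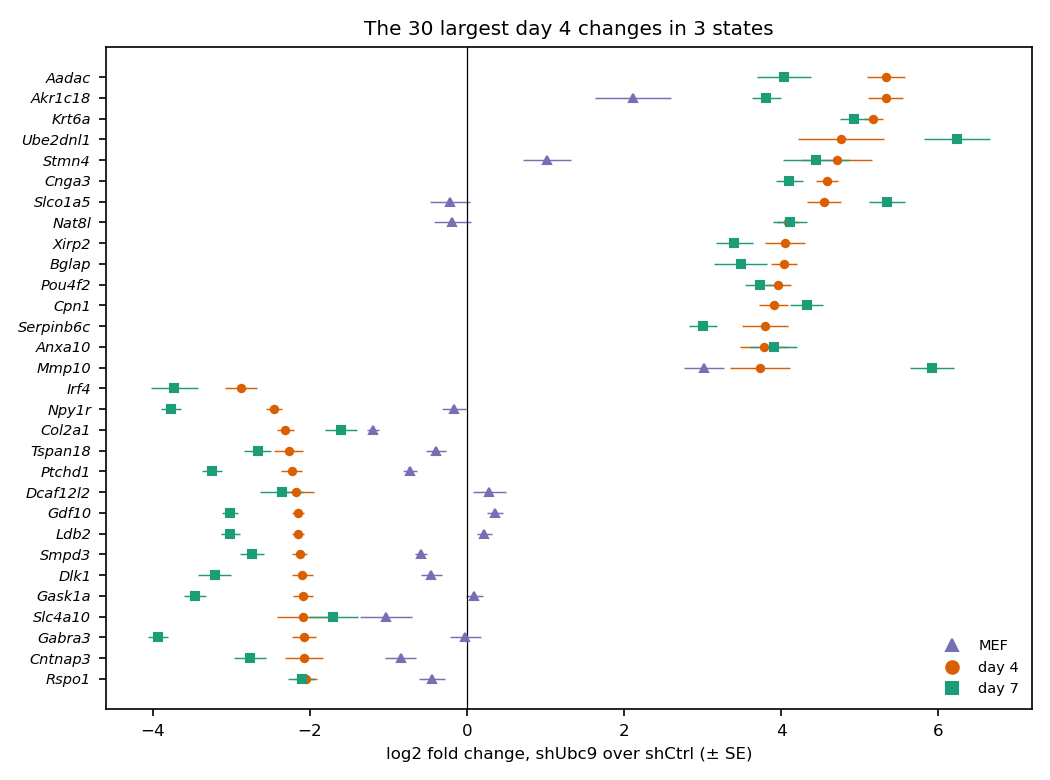
Log2 fold change, shUbc9 over shCtrl (points, bars ± SE), of the 30 genes with the largest day 4 changes, in MEF (triangles, 19 genes tested), at day 4 (circles) and at day 7 (squares). At day 7 all 30 lie on the side of 0 where they lay at day 4, whereas most MEF values lie close to 0.

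The difference between the responses was tested directly. Of 17728 genes 6497 (36.6%) responded differently at day 4 and in MEF, 3014 with a higher (17.0%) and 3483 with a lower (19.6%) log2 response at day 4. With libraries scaled by their totals alone, 62.2% of these calls were of the higher kind, against 46.4% with TMM scaling. The response was higher at day 4 for all 30 ribosome biogenesis genes and for 21 of 31 proteasome genes, and lower for 33 of 42 fibroblast matrix genes, 21 of 26 collagens, 25 of 39 mesodermal factors and 23 of 36 Hox genes. In MEF 0 of the 30 ribosome biogenesis genes and 1 of 36 Hox genes were called. Of 24 macrophage genes 17 rose in MEF, and the response was higher at day 4 for 6 and lower for 3, a share near that over all genes. Between day 7 and day 4 the response differed for 2171 of 17676 genes (12.3%), 6.04% with a higher and 6.24% with a lower response at day 7. It was higher at day 7 for 27 of 43 junction genes and 26 of 30 mitosis genes, and lower for 16 of 42 fibroblast matrix genes. It differed for 0 of 30 ribosome biogenesis genes, 0 of 31 proteasome genes and 2 of 36 Hox genes. With libraries scaled by their totals alone, 72.9% of the calls were of the higher kind, against 49.2%. Leaving out D7 shCtrl replicate 1 gave 1386 calls in place of 2171.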

How the data were processed

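RNA was measured by stranded total RNA sequencing after removal of ribosomal RNA, per the labels' protocols. The authors deposited, per the file headers, 1 table of read counts per gene (Entrez identifier) or repeat family with 1 column per library, not normalized, and all 28 columns matched a sample (0 left over). Build mm9 and the tools STAR 2.5.0a, featureCounts and DESeq2 are listed in the submitters' processing notes. The sources used here do not give the strand setting, the handling of reads mapping to several places or the annotation. Transcripts of the cassette may add to the counts of its 4 factors. Symbols came from RefSeq tables of GRCm38.p6 (24191 of 26301 identifiers matched, 2110 did not). Peak lists and the 799 repeat families were not used, except for the share of counts in repeats.

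Counts were tested in R 4.3.3 with the quasi-likelihood test of edgeR 4.0.16, two-sided, on the groups compared, after filterByExpr (minimum count 10) and TMM scaling. P-values were adjusted by Benjamini-Hochberg over all genes tested and called under 0.05. CPM are counts divided by the effective library size in M, and fold changes are fitted. Differences between responses were interaction terms of the same model. On simulated day 4 counts of 17001 genes the test recovered 78% of genes changed 1.5-fold and 96% of those changed 2-fold, with 4 false calls of 178. The simulation gave every gene the same spread, changed only a small set of genes and held no outlying library. Its share of false calls therefore does not carry over to the calls in the real libraries. The depth of 25.1 to 56.6 M limits the precision of low genes, and errors cover counting and library spread only. Replicate numbers were not used as pairs in the main fit, and no 2 day 4 libraries of a group agreed within sampling noise.

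Named genes were the 15 largest rises and 15 largest falls of called, non-overlapping genes whose higher group averaged 1 CPM or more, without predicted genes. To these were added the 10 largest rises and falls in CPM, all members of the 2 SUMO lists, up to 3 rises and 3 falls of smallest p per list, and the 5 highest and 5 lowest differences of smallest p between responses. Other genes are named where stated. Members of any list that passed the count minimum only through 1 group had to differ, so counts among low genes carry no weight of their own. Some genes that these rules select are not reported here. The comparison, its 58 gene lists (1651 of 1656 entries matched) and the rules were chosen with earlier results of these data known. Alternatives were DESeq2 1.42.0, its size factors in edgeR, library totals alone, no filter, a stricter threshold, the replicate number as a block, a spread shared by all 28 libraries, and each library left out in turn.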

Additional observations from a re-analysis of the deposited data

Results flagged for a closer look

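Each value here is a difference between 2 responses to the hairpin that passed the interaction test itself. The response at day 4 differed from that in MEF for 6497 genes, and the response at day 7 from that at day 4 for 2171 genes. For each of these comparisons the 5 genes with the smallest p in each direction are given, with the response as the log2 fold change of shUbc9 over shCtrl and the difference with its SE. The responses come from the separate fit of each state and the differences from a joint fit of both, so a difference can depart a little from the responses beside it.

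Higher at day 4 than in MEF were Aldh1a3, which makes retinoic acid, with a difference of 2.44 ± 0.12 (1.78 at day 4, -0.68 in MEF), and Hhip, a decoy receptor for Hedgehog, with 3.03 ± 0.19 (2.17 and -0.88). Both were called in opposite directions in the 2 states. The proton pump gene Atp12a differed by 2.88 ± 0.18 (2.48 and -0.42), the oxysterol-binding gene Osbpl3 by 1.43 ± 0.09 (1.22 and -0.23) and the drug exporter gene Abcb1b by 1.41 ± 0.09 (1.45 and 0.03), none of them called in MEF.

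Lower at day 4 than in MEF were Pgm5, a protein of cell-matrix contacts, with a difference of -1.95 ± 0.10 (-1.94 at day 4, -0.01 in MEF), Ldb2 with -2.38 ± 0.12 (-2.15 and 0.22), Gdf10 with -2.53 ± 0.13 (-2.15 and 0.36) and P-cadherin, Cdh3, with -1.56 ± 0.09 (-1.41 and 0.13). Fbln1, a matrix glycoprotein, differed by -1.45 ± 0.09. It fell at day 4 (-0.90) and rose in MEF (0.53).

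Higher at day 7 than at day 4 were Tle4, a corepressor, with a difference of 1.30 ± 0.10 (-0.20 at day 4, 1.08 at day 7), Pde9a with 1.37 ± 0.11, the carbonic anhydrase gene Car2 with 1.99 ± 0.17, Cyp2s1 with 1.74 ± 0.15 and Zbtb32 with 1.87 ± 0.17. Of these, Tle4 and Cyp2s1 were lower at day 4 and higher at day 7, Car2 and Zbtb32 were higher at both, and Pde9a was called at day 7 only.

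Lower at day 7 than at day 4 were Fmo2, a monooxygenase, with a difference of -1.71 ± 0.11 (-2.03 at day 4, -3.75 at day 7), the metalloproteinase gene Adamts15 with -1.45 ± 0.10, Ccn3 with -1.43 ± 0.10 and the peptidase gene Ggt5 with -1.61 ± 0.12. These 4 fell at both times. Serpina3n, an acute-phase inhibitor, differed by -1.61 ± 0.12 and was the one gene here that rose at day 4 (0.60) and fell at day 7 (-1.02).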

How the results depend on the processing

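The count of 9051 genes called at day 4 was 8645 with DESeq2, 9037 with DESeq2 size factors in edgeR, 8835 with library totals alone, 9005 with no filter on low counts and 6362 at an adjusted p under 0.01. It was 4190 with a spread shared by all 28 RNA libraries. In that fit 2 macrophage genes were called higher in place of 19, and 10 collagens lower in place of 24. Leaving out 1 library gave 7281 to 8937 calls at day 4, 6998 to 9125 at day 7, 266 to 1717 in MEF, 4385 to 6926 for the response at D4 minus response in MEF and 1386 to 2866 for the response at D7 minus response at D4. The replicate block gave 7497 calls at day 4 and 1870 in place of 984 in MEF, and no other of the 5 counts of calls moved by over 1.5 times under it. Same-numbered day 4 libraries had correlations of -0.10, -0.48 and -0.35 in their deviations from the group means. With 3 libraries per group, these values cannot decide whether the numbers mark a shared origin. Of 322 named genes that were called, 211 kept call and direction under every alternative run, and 1268 of 1508 list counts stayed within 1.5 times. Uncalled values that changed sign with 1 library left out were those of Senp2 (-0.0278 to 0.0361) and Nsmce2 (-0.0345 to 0.0673). Of genes grouped by annotated length (RefSeq, GRCm38.p6), the 3245 of at least 68288 bp had a median log2 change of -0.11, and the 4 groups of shorter genes 0.02 to 0.04. Depth limits what can be said of genes below the count minimum.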

Other observations

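Genes that turn over steroids, lipids and foreign compounds moved in both directions at day 4: of 34 tested, 10 rose and 15 fell, with 6 at least 2-fold in each direction. Over all genes tested, 27.2% were higher and 26.1% lower. Aldh1a3, which makes retinoic acid, rose from 6.57, 6.91 and 6.53 to 22.4, 22.8 and 23.5 CPM. Dhrs3, which turns retinal back to retinol, fell from 99.8, 102.1 and 93.8 to 49.3, 46.8 and 45.9 CPM. The monooxygenase genes Fmo1 and Fmo2 fell by 1.55 ± 0.10 and 2.03 ± 0.09 on the log2 scale (SE). Of 24 glycolysis genes 10 rose and 6 fell, with Hk2, a hexokinase, at 0.79 ± 0.07, Pgk1 at 0.72 ± 0.09 and Slc2a1, the glucose carrier, at -0.47 ± 0.07.

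Of 35 lysosome and autophagy genes 10 rose and 10 fell, near the 27.2% higher and 26.1% lower over all genes. The falls numbered 6 without shUbc9 replicate 2. Gpnmb rose by 1.00 ± 0.09 and Ctsf, a cathepsin, by 0.71 ± 0.06. Map1lc3b, the autophagosome protein LC3, fell from 148, 146 and 154 to 77.6, 75.6 and 90.8 CPM. Of 18 smooth muscle genes 5 rose and 6 fell: calponin, Cnn1, rose by 1.09 ± 0.12 and Synpo2 fell by 1.25 ± 0.13. Of 25 germline and meiosis genes 11 were tested, and 5 of these rose and 1 fell. Here too, members that passed only through the depleted group had to differ. Tdrd1 stood at 1.28, 1.44 and 1.10 CPM in shCtrl and 3.33, 3.27 and 3.15 CPM in shUbc9. Of 9 genes of the 2-cell embryo 0 reached the count minimum.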
